A study of Homo sapiens with 8 samples.

Results

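The 36 genes described here encode proteins that detect, process or rejoin DNA double-strand breaks. They were chosen by name, as the rows of the RNA expression table whose gene symbol matched the list, and each of the 36 had 1 row among the 60754 genes and spike-in sequences of the table. The RNA came from SEM cells, an established line of B-lineage acute lymphoblastic leukemia (B-ALL) with a *KMT2A* rearrangement. Its endogenous *CTCF* carries the miniAID degron tag and the fluorescent protein mClover3, and the cells express OsTIR1(F74G), the receptor that lets the ligand 5-Ph-IAA direct the tagged protein to degradation. In the clones C17.2 and C3.2 the receptor is linked to a gene for resistance to Zeocin, so parental and resistant cells of both clones carry that gene. Parental cells received no treatment. Resistant cells came from 36 days of culture in Zeocin at 100 μg/ml together with 5-Ph-IAA at 1 μM and then 48 h with both agents withheld. The GEO labels describe the long culture as with or without Zeocin, and the study's methods name Zeocin for both of these clones. Each of the 4 groups had 2 libraries, 8 in all. Each clone grew from 1 cell, and per the study resistant cells of C17.2 hold a truncated CTCF beside the tagged protein, which returns once 5-Ph-IAA is removed, and those of C3.2 hold full-length CTCF with a changed degron tag. The effects of 5-Ph-IAA, Zeocin, the CTCF change and the long culture on these genes cannot be told apart in this design.

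Zeocin belongs to the bleomycin family, whose members cut both strands of DNA. A broken end can be rejoined directly by end joining, in which the Ku heterodimer holds the end, a large kinase and a nuclease prepare it, and a dedicated ligase seals it. It can also be cut back to single-stranded DNA and copied from the sister chromatid by homologous recombination, which works mainly in S and G2 phase. Kinases and ubiquitin ligases signal from the break and influence which route is used, and another route, driven by DNA polymerase theta, joins ends through short matching sequences. Precursor B cells, the lineage of SEM, also use end joining to rejoin the breaks made during V(D)J recombination.

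The libraries were of B-lineage cells by their markers. Of 9 B-lineage markers, 8 reached 1 TPM (a level per transcript length that sums to the same total in each library), *CD24* being the exception, and 1 of 5 T cell markers did, *TRAC*, at 34.1 to 53.4 scaled TPM, while *CD3D* and *CD8A* were at 0 in every library. The T cell markers summed to 45.8 to 47.1 in C17.2 parental and 34.1 to 34.5 in C17.2 resistant libraries, and to 52.9 to 53.5 and 45.5 to 45.6 in those of C3.2. Of 3 NK markers, *NKG7* was at 7.84 to 12.3 and *NCAM1* at 1.22 to 2.90 in the 8 libraries, and the list summed to 9.5 to 10.9 and 14.9 to 15.2 in C17.2 and 9.26 to 9.33 and 9.57 to 11.6 in C3.2. Of 5 monocyte and granulocyte markers, 2 reached 1 TPM, *LYZ* at 0.457 to 1.94 and *CSF1R* at 0.796 to 2.48 scaled TPM. Of 3 fibroblast and epithelial markers 1 did, *COL1A1*, at 2.66 to 2.83 in C17.2 parental and 5.62 to 6.64 in C17.2 resistant libraries. In C3.2 it was at 2.51 to 3.25 and 3.44 to 4.08. Of 3 erythroid markers, 0 did. The part of these markers in the results was not tested. The summed level of the 9 B-lineage markers was 845 to 846 scaled TPM in C17.2 parental and 673 to 698 in C17.2 resistant libraries, and 919 to 948 and 758 to 759 in those of C3.2. Scaled TPM is the deposited TPM divided by a library factor between 0.893 and 1.16. The TPM scale keeps no read depth, so the depth of the libraries is unknown. *CTCF* itself was higher in resistant than in parental cells of each clone (log2 fold change 0.44, SE 0.041, adjusted p = 0.000795 in C17.2 and 0.34, SE 0.041, adjusted p = 0.0068 in C3.2).

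In parental cells the 36 genes spanned levels from 1.88 to 2.31 scaled TPM for *LIG4*, the ligase of end joining, to 149 and 151 in C17.2 and 174 and 178 in C3.2 for *XRCC5*, which encodes the Ku80 subunit. *XRCC5*, *PARP1*, *XRCC6* and *PRKDC* were at 72.7 scaled TPM or more in each parental library, and the other 32 genes were at 53.4 or less in all of them. All 36 reached 1 TPM in at least 1 library and passed the filter on low values. The parental level of C17.2 divided by that of C3.2 had a median of 1.03 over the 36 genes. The ratio was highest for *PRKDC*, at 1.69, then 1.43 for *RAD52*, and lowest for *PARP1*, at 0.808. In resistant cells the *PRKDC* ratio was 1.56. These ratios between clones were not tested, because the number prefixes of the sample titles fall in a separate run for each clone, and clone and any difference that goes with these numbers cannot be told apart.

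**Figure D1:**
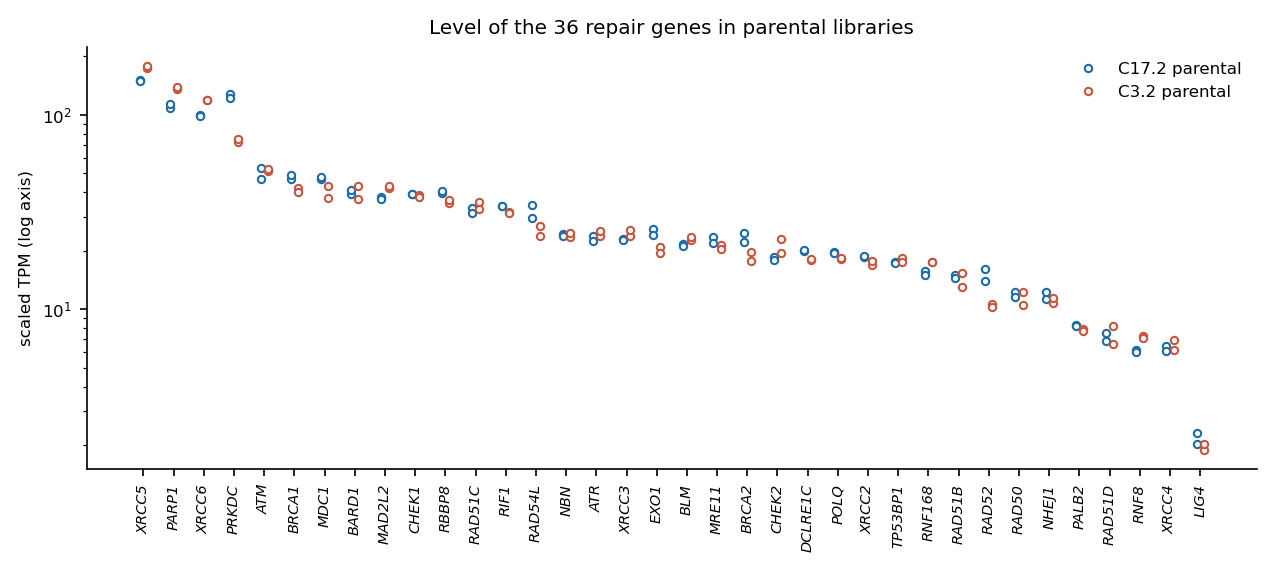
Level of each of the 36 repair genes in the 4 parental libraries, in scaled TPM on a log axis, ordered by mean level, with 1 open circle per library and color for the clone. *XRCC5*, *PARP1*, *XRCC6* and *PRKDC* stand above the other 32 genes, and the circles of the clones lie farthest apart for *PRKDC*.

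Of the 36 repair genes, 13 passed the threshold in at least 1 clone, and the log2 fold changes of all 36 were under 1 in size in both clones. In C17.2, 11 of the 36 passed the threshold (adjusted p under 0.05, limma across all genes tested), 8 higher and 3 lower in resistant cells. Of all 15614 genes tested, 27.3% passed there, 13.4% higher and 13.9% lower, so the share among the repair genes, 30.6%, was near that of all genes. In C3.2, 4 of the 36 passed (11.1%), all lower, beside 11.4% of all genes, 4.46% higher and 6.90% lower. The median log2 fold change of the 36 genes was 0.014 in C17.2 and -0.048 in C3.2, with a median of 0 over all genes tested in both. Resistant and parental libraries did not overlap for 23 of the 36 genes in C17.2, where 66.0% of all genes did not overlap, and for 21 in C3.2, where 55.8% did not. With scaling, the repair genes without overlap were 12 higher and 11 lower in resistant cells of C17.2, beside 33.3% and 32.7% of all genes, and 7 higher and 14 lower in C3.2, beside 27.8% and 28.1%. With TPM as deposited they were 26 higher and 3 lower in C17.2, beside 49.2% and 18.7% of all genes (67.9% in either direction). In C3.2 they were then 11 higher and 5 lower, beside 36.6% and 19.0% (55.6% in either direction). *EXO1* passed as lower in both clones, *PARP1* was higher in C17.2 and lower in C3.2, 9 genes passed in C17.2 alone, 2 in C3.2 alone, and 23 in neither. The shares of all genes in these joint sets, and in at least 1 clone, were not counted. These joint counts are therefore not a result about the repair genes.

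These counts depended on single libraries and on scaling. The count of 11 in C17.2 became 3 without C17.2 parental replicate 1, 5 without parental replicate 2, 4 without resistant replicate 1 or without resistant replicate 2, 7 without C3.2 parental replicate 1 or 2, and 13 without either C3.2 resistant library. The count of 4 in C3.2 became 0 without either C3.2 parental library, 1 without C3.2 resistant replicate 2 or C17.2 parental replicate 2, and 2 without any other single library. Of the 15 calls on repair genes, *XRCC6* and *BLM* in C17.2 were the 2 that held in each of 16 alternatives, and no call changed sign in any. The share of calls that were higher, over all genes, was 49.1% in C17.2 and 39.3% in C3.2 with scaling. It was 75.1% and 57.8% with TPM as deposited, 64.5% and 70.2% with TPM rescaled over protein-coding genes, and 54.1% and 50.8% with quantile normalization. Some repair genes that had not passed did so under an alternative, *ATM* (lower, without C17.2 parental replicate 1), *MDC1* and *PALB2* (higher, with TPM as deposited) and *RAD54L* (lower, without either C3.2 resistant library) in C17.2, and others given with their groups. With TPM as deposited, the repair genes that passed were 11 higher and 0 lower in C17.2 and none in C3.2, where all 4 calls were lost, and the median of all genes was 0.13 in C17.2. Rescaled over protein-coding genes, they were 9 higher and 1 lower in C17.2, and 2 higher and 1 lower in C3.2.

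**Figure D2:**
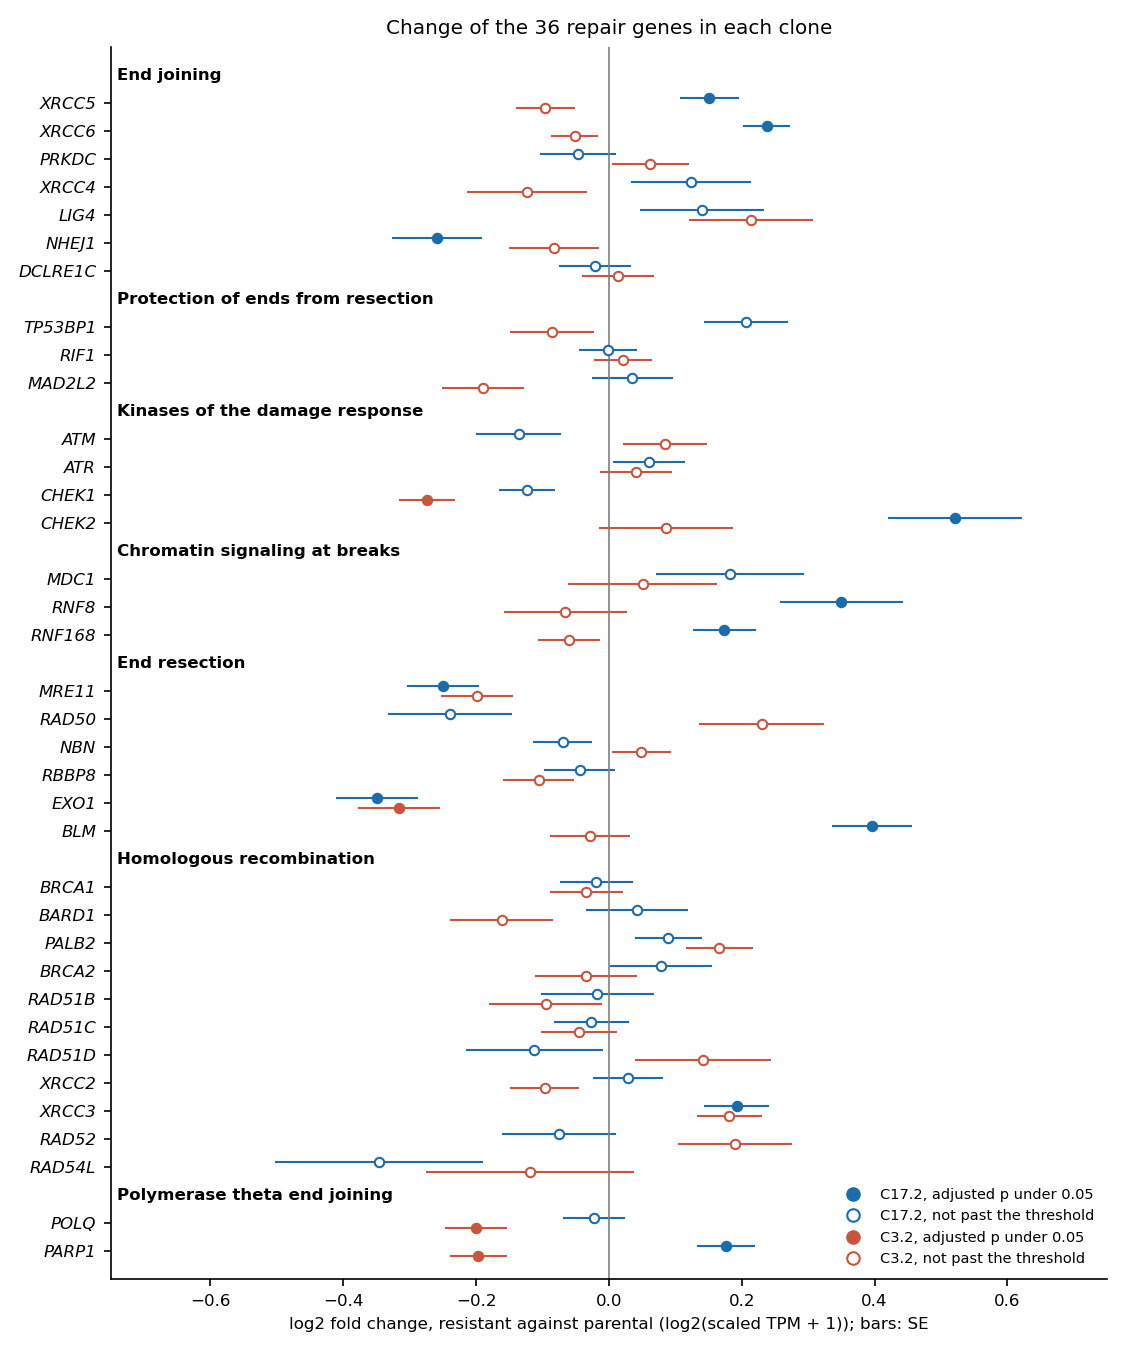
Log2 fold change of each of the 36 repair genes, resistant against parental, on the scale of log2(scaled TPM + 1), in C17.2 (blue) and C3.2 (red), grouped by role. Bars are SE from the model and filled circles passed the threshold, 11 in C17.2 and 4 in C3.2.

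Among the 7 end joining genes, both Ku subunits rose in C17.2. *XRCC6* encodes Ku70, which with Ku80 forms the ring that loads on a broken end. Its level was 99.8 and 99.2 scaled TPM in C17.2 parental and 118 and 117 in resistant libraries, against 119 and 119 in C3.2 parental and 116 and 114 in C3.2 resistant libraries. Both resistant libraries of C17.2 lay above both parental ones, and the C17.2 parental libraries were the lowest of the 8. The log2 fold change was 0.24 (SE 0.035, adjusted p = 0.00432, range over alternatives 0.00131 to 0.0236) in C17.2 and -0.05 (adjusted p = 0.393) in C3.2. *XRCC5* was 151 and 149 in C17.2 parental, 161 and 171.6 in resistant, 174 and 178 in C3.2 parental and 166 and 163 in C3.2 resistant libraries. Its groups did not overlap in either clone, with the higher values in resistant cells of C17.2 and in parental cells of C3.2, although with TPM as deposited the C3.2 groups overlapped. The log2 fold change was 0.15 (SE 0.045, adjusted p = 0.0496) in C17.2 and -0.10 (adjusted p = 0.227) in C3.2.

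*NHEJ1* fell in C17.2. It encodes XLF, a scaffold that aligns the ends with the ligase complex. It was at 11.4 and 12.2 scaled TPM in C17.2 parental and 10.1 and 9.25 in resistant libraries, and at 10.8 and 11.5, then 10.3 and 10.6 in C3.2. The parental libraries were higher without overlap in both clones, although with TPM as deposited the C3.2 groups overlapped. The log2 fold changes were -0.26 (SE 0.068, adjusted p = 0.0326) in C17.2 and -0.08 (adjusted p = 0.476) in C3.2.

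The calls on *XRCC5* and *NHEJ1* in C17.2 were each lost without C17.2 parental replicate 1, without C17.2 parental replicate 2, without C17.2 resistant replicate 2 and without either C3.2 parental library. Both were also lost without the filter on low values and with only the libraries of C17.2. The *XRCC5* call was lost with no intensity trend in limma, and the *NHEJ1* call with TPM as deposited and rescaled over protein-coding genes. The adjusted p over the alternatives ran from 0.00965 to 0.156 for *XRCC5* and from 0.0316 to 0.242 for *NHEJ1*.

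The other 4 end joining genes did not pass the threshold in either clone. *PRKDC*, the catalytic subunit of the DNA-dependent protein kinase that Ku recruits, was 128 and 122 scaled TPM in C17.2 parental, 119 and 123 in resistant, 72.7 and 75.3 in C3.2 parental and 73.7 and 81.1 in C3.2 resistant libraries. Its libraries differed by clone, and the groups within a clone overlapped, although with TPM as deposited the C3.2 resistant libraries were higher without overlap. *DCLRE1C*, the nuclease Artemis that opens hairpin ends, stayed between 17.4 and 20.1 in the 8 libraries, at 20.03 and 20.07, then 20 and 19.5 in C17.2, and 17.9 and 18.2, then 19.1 and 17.4 in C3.2. In C17.2 its resistant libraries were lower without overlap with scaling and higher without overlap with TPM as deposited. *XRCC4*, the partner that stabilizes the ligase, was 6.45 and 6.09 in C17.2 parental, 6.37 and 7.5 in resistant, 6.95 and 6.15 in C3.2 parental and 5.92 and 5.93 in C3.2 resistant libraries. Its log2 fold changes were 0.12 and -0.12, each with SE 0.09. *LIG4*, the ligase, was the lowest of the 36 genes, at 2.03 and 2.31, then 2.34 and 2.65 in C17.2, and 1.88 and 2.03, then 2.40 and 2.45 in C3.2. Its resistant libraries were above the parental ones in both clones without overlap, with log2 fold changes of 0.14 (adjusted p = 0.32) and 0.21 (adjusted p = 0.201), SE 0.094 for each.

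None of the 3 genes that protect ends from resection passed in either clone in limma, with 1 in C17.2 and 1 in C3.2 at an unadjusted p under 0.05. *TP53BP1*, the scaffold 53BP1 that binds chromatin beside a break, was 17.6 and 17.23 scaled TPM in C17.2 parental and 20.5 and 19.97 in resistant libraries, a log2 fold change of 0.21 (adjusted p = 0.0558). It passed as higher in C17.2 under 5 alternatives, with TPM as deposited (adjusted p = 0.00678), rescaled over protein-coding genes (0.0194), with only the libraries of C17.2 (0.0416) and without either C3.2 resistant library (0.0233 and 0.0236). *RIF1*, which 53BP1 recruits, stayed between 31.1 and 34.6 in all 8 libraries. *MAD2L2*, a subunit of the shieldin complex, was 42.3 and 43.0 in C3.2 parental and 39.2 and 35.5 in resistant libraries, a log2 fold change of -0.19 (adjusted p = 0.104).

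Of the 4 damage response kinases, *CHEK2* rose in C17.2 and *CHEK1* fell in C3.2. *CHEK2*, which relays the signal of ATM, was 18.5 and 17.9 scaled TPM in C17.2 parental and 28.2 and 24.9 in resistant libraries, and 19.4 and 23.0, then 21.2 and 23.8 in C3.2. Its groups did not overlap in C17.2 and overlapped in C3.2. The log2 fold change of 0.52 (SE 0.1, adjusted p = 0.0115) was the highest of the 36 genes in C17.2, beside 0.09 (adjusted p = 0.632) in C3.2, and the test of the difference was not passed (0.44, adjusted p = 0.113). The call was lost without C17.2 parental replicate 1 (adjusted p = 0.0678), parental replicate 2 (0.0816) or resistant replicate 1 (0.0743), and its adjusted p was 0.00441 at the lowest over the alternatives.

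*CHEK1* relays the signal of ATR when replication stalls. It was 39.2 and 39.2 in C17.2 parental, 36.5 and 35.3 in resistant, 38.9 and 38.0 in C3.2 parental and 31.1 and 32.1 in C3.2 resistant libraries. The resistant libraries were the lower ones in both clones without overlap, although with TPM as deposited the C17.2 groups overlapped. The log2 fold changes were -0.27 (SE 0.042, adjusted p = 0.013) in C3.2 and -0.12 (adjusted p = 0.077) in C17.2. With TPM as deposited and with only the libraries of C3.2, the call in C3.2 was lost. The call in C3.2 was lost without C3.2 parental replicate 1 (adjusted p = 0.084) or parental replicate 2 (0.0622), and the range over the alternatives was 0.0118 to 0.0865. *CHEK1* overlaps *STT3A* on the same strand in Gencode release 44, and *CHEK2* overlaps *HSCB* on the opposite strand. Whether the counting used strand is not given in the sources used here. The apical kinases *ATM* and *ATR* passed in neither clone, with log2 fold changes of -0.14 and 0.06 in C17.2 and 0.08 and 0.04 in C3.2.

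The 3 genes of chromatin signaling at breaks had values above 0 in C17.2, and 2 passed, where 13.4% of all genes passed as higher. *RNF8* and *RNF168* are ubiquitin ligases that mark histones beside a break in sequence. *RNF8* was 6.18 and 6.02 scaled TPM in C17.2 parental, 7.84 and 8.26 in resistant, 7.24 and 7.15 in C3.2 parental and 7.60 and 6.13 in C3.2 resistant libraries, a log2 fold change of 0.35 (SE 0.093, adjusted p = 0.0348) in C17.2 and -0.07 (adjusted p = 0.699) in C3.2. *RNF168* was 15.8 and 15.1, then 17.3 and 17.8 in C17.2, and 17.5 and 17.5, then 16.5 and 16.96 in C3.2, a log2 fold change of 0.17 (SE 0.047, adjusted p = 0.038) and -0.06 (adjusted p = 0.459). Neither gene's groups overlapped in C17.2, and for *RNF168* its parental libraries were the lowest of the 8. Without the filter on low values the *RNF8* call was lost. That on *RNF168* was lost with quantile normalization, with no intensity trend and with only the libraries of C17.2. Both calls were lost without any 1 of the 4 C17.2 libraries and without either C3.2 parental library, with adjusted p up to 0.16 for *RNF8* and 0.138 for *RNF168* and, over the alternatives, down to 0.00924 and 0.0102. *MDC1*, the adaptor that binds the phosphorylated histone at a break, had a log2 fold change of 0.18 (adjusted p = 0.28) in C17.2 and overlaps *TUBB* on the opposite strand.

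The 6 end resection genes moved in both directions. *BLM* encodes the RecQ helicase that unwinds DNA for long resection and later resolves recombination intermediates. It was 21.6 and 21.1 scaled TPM in C17.2 parental, 26.9 and 29.9 in resistant, 22.7 and 23.6 in C3.2 parental and 23.0 and 22.4 in C3.2 resistant libraries. Both C17.2 resistant libraries stood above the other 6. *BLM* rose in C17.2 by 0.40 on the log2 scale (SE 0.06, adjusted p = 0.00473, range over alternatives 0.00216 to 0.0402), and its log2 fold change in C3.2 was -0.03 (adjusted p = 0.812).

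*EXO1*, the nuclease that works beside BLM in long resection, passed as lower in both clones. It was 26.0 and 24.2 in C17.2 parental and 18.8 and 20.1 in resistant libraries, and 20.8 and 19.5, then 15.7 and 16.3 in C3.2. The groups did not overlap in either clone, and the log2 fold changes were -0.35 (SE 0.062, adjusted p = 0.00837) in C17.2 and -0.32 (SE 0.062, adjusted p = 0.0265) in C3.2. With TPM as deposited both calls were lost. That in C3.2 was also lost rescaled over protein-coding genes, without the filter on low values and with only the libraries of C3.2. The call in C17.2 was lost without C17.2 parental replicate 1 (adjusted p = 0.0581) or resistant replicate 1 (0.0504), with 0.00783 to 0.111 over the alternatives. That in C3.2 was lost without any 1 of the 4 C3.2 libraries and without either C17.2 parental library, with 0.0254 to 0.143.

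*MRE11*, the nuclease of the complex that senses and starts to cut an end, was 23.6 and 22.0 in C17.2 parental and 19.0 and 19.1 in resistant libraries, and 21.3 and 20.4, then 18.5 and 17.6 in C3.2. Parental libraries were the higher ones in both clones without overlap. The log2 fold change was -0.25 (SE 0.054, adjusted p = 0.0172) in C17.2 and -0.20 (adjusted p = 0.0664) in C3.2. With TPM as deposited and rescaled over protein-coding genes, the call in C17.2 was lost. The call was lost without C17.2 parental replicate 1 (adjusted p = 0.0838), resistant replicate 1 (0.0707) or resistant replicate 2 (0.0723), and the range over the alternatives was 0.0164 to 0.398, the highest with TPM as deposited, where the C17.2 groups overlapped. Its partners *RAD50* and *NBN* and the cofactor *RBBP8* (CtIP) did not pass in either clone. *RAD50* had a log2 fold change of -0.24 in C17.2 and 0.23 in C3.2, each with SE 0.094, and the difference did not pass (-0.47, adjusted p = 0.0789).

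Of the 11 homologous recombination genes, 1 passed in C17.2 and none passed in C3.2, beside 27.3% and 11.4% of all genes. That gene was *XRCC3*, whose product acts in strand invasion, at 22.9 and 22.7 scaled TPM in C17.2 parental and 26.0 and 26.4 in resistant libraries, and 23.7 and 25.5, then 28.4 and 27.6 in C3.2. Resistant libraries were higher without overlap in both clones, and the log2 fold changes were 0.19 (SE 0.049, adjusted p = 0.0307) and 0.18 (SE 0.049, adjusted p = 0.0657). With no intensity trend in limma the call in C17.2 was lost. The call in C17.2 was lost without any 1 of the 4 C17.2 libraries, with adjusted p up to 0.114 and, over the alternatives, down to 0.00743. *XRCC3* overlaps *KLC1* on the opposite strand. For the other 10 genes the log2 fold changes ran from -0.35 for *RAD54L*, a DNA motor of strand invasion, to 0.09 for *PALB2*, the bridge between BRCA1 and BRCA2, in C17.2. In C3.2 they ran from -0.16 for *BARD1*, the partner of BRCA1, to 0.19 for *RAD52*, an annealing protein. *BRCA1*, which promotes resection, was at -0.02 and -0.03, and *BRCA2*, a mediator of strand invasion, at 0.08 and -0.03. The genes *RAD51B*, *RAD51C*, *RAD51D* and *XRCC2* lay between -0.11 and 0.03 in C17.2 and between -0.10 and 0.14 in C3.2, and none passed.

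Both polymerase theta end joining genes fell in C3.2, where 6.90% of all genes passed as lower. *PARP1*, which binds broken DNA and builds poly(ADP-ribose) chains, was 108 and 114 scaled TPM in C17.2 parental, 126 and 125 in resistant, 136 and 139 in C3.2 parental and 122 and 118 in C3.2 resistant libraries. The groups did not overlap in either clone, and the parental libraries of the clones lay on opposite sides of the resistant ones. The log2 fold change was 0.18 (SE 0.043, adjusted p = 0.026) in C17.2 and -0.20 (SE 0.043, adjusted p = 0.0358) in C3.2. With no intensity trend in limma both calls were lost. That in C3.2 was also lost under all 3 other scalings and with only the libraries of C3.2. The call in C17.2 was lost without C17.2 parental replicate 1, resistant replicate 1 or resistant replicate 2 (adjusted p up to 0.1, range over alternatives from 0.00525). The call in C3.2 was lost without C3.2 parental replicate 1 or 2, C3.2 resistant replicate 2, C17.2 parental replicate 2 or either C17.2 resistant library (adjusted p up to 0.145, range over alternatives 0.0321 to 0.239).

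*POLQ*, the polymerase itself, was 19.7 and 19.5 in C17.2 parental, 19.7 and 18.9 in resistant, 18.0 and 18.3 in C3.2 parental and 15.4 and 16.0 in C3.2 resistant libraries. Its groups overlapped in C17.2, where with TPM as deposited the resistant libraries were higher without overlap. The log2 fold change in C3.2 was -0.20 (SE 0.046, adjusted p = 0.0431). Under all 3 other scalings, without the filter on low values, with no intensity trend and with only the libraries of C3.2, the call was lost. This call was lost without any 1 of the 8 libraries, with adjusted p of 0.0558 to 0.155.

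The start regions of 4 genes are shown because they belong to genes that passed the threshold and held, or lacked, a CCAAT box, a promoter element common to many genes. The search covered RefSeq windows (GRCh38.p14) from 250 bases before to 50 bases after each gene's start, on both strands, and 33 of the 36 genes had one. CCAAT was in 15 of the 33 (45.5%, beside 34.6% of all 35116 windows). It was in 5 of the 7 windows of genes that rose in C17.2, namely *XRCC6*, *CHEK2*, *RNF8*, *BLM* and *XRCC3*. It was also in 1 of the 3 windows of repair genes that fell there and 9 of the 23 that did not pass. In C3.2 it was in 1 of the 4 that fell. Over all genes in C17.2 it was in 41.0% of the windows of those that rose, 33.4% of those that fell and 38.2% of those that did not pass. In C3.2 these shares over all genes were 35.2%, 37.0% and 38.2%. A link between the box and the direction of change was not tested. The CHR element (TTTGAA) was in 4 of the 33 windows, 12.1% beside 15.2% of all, and letters of the E2F site (TTTGGCGC, TTTCGCGC or TTTCCCGC) were in 3, *EXO1*, *XRCC2* and *XRCC6*, 9.09% beside 2.74% of all. The 35116 windows were not limited to the genes tested here, and the CHR and E2F shares among tested genes were not counted. A match of letters is a description and not a bound site. The 120 bases before the start are printed 5′ to 3′ along the gene, with CCAAT or its reverse complement ATTGG in capitals.
BLM, chr15:90717226-90717345, plus strand: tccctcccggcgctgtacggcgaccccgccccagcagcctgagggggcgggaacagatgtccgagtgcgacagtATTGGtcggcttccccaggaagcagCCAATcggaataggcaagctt
RNF8, chr6:37353863-37353982, plus strand: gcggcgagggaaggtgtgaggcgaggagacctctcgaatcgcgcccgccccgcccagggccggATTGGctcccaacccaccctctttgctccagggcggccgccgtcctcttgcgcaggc
RNF168, chr3:196503769-196503888, minus strand: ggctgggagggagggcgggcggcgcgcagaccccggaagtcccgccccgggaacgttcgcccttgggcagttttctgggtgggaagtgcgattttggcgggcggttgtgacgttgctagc
POLQ, chr3:121545989-121546108, minus strand: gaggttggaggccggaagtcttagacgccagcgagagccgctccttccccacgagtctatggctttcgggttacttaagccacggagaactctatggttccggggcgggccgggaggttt
The *BLM* stretch held CCAAT once on each strand and that of *RNF8* once on the reverse strand, while those of *RNF168*, which rose in C17.2, and *POLQ*, which fell in C3.2, held none. The stretches of *MRE11*, which fell in C17.2, and *CHEK1*, which fell in C3.2, are not printed and each held the box.

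End joining and homologous recombination genes were set side by side as the design asks. In C17.2, 3 of the 7 end joining genes passed (2 higher, 1 lower) and 1 of the 11 recombination genes (higher), beside 27.3% of all genes tested, 13.4% higher and 13.9% lower. Their median log2 fold changes were 0.12 and -0.02. In C3.2 none of either group passed in limma (0 of 7 and 0 of 11, with 0 and 2 at an unadjusted p under 0.05), beside 11.4% of all genes, and the medians were -0.05 and -0.03. With TPM rescaled over protein-coding genes, 2 recombination genes passed as higher in C3.2, *PALB2* (0.26, adjusted p = 0.0237) and *XRCC3* (0.28, adjusted p = 0.0164). The medians also moved with scaling. With TPM as deposited they were 0.26 for end joining and 0.14 for recombination in C17.2, and 0.014 and 0.029 in C3.2, while the median of all genes was 0.13 in C17.2 and 0.053 in C3.2. Rescaled over protein-coding genes they were 0.20 and 0.064 in C17.2 and 0.052 and 0.064 in C3.2, with medians of all genes of 0.069 and 0.085. Over all genes tested, the log2 fold changes of single genes had an interquartile range of -0.20 to 0.19 in C17.2. In C3.2 it was -0.15 to 0.14. All 4 medians of the main fit lay inside these ranges. A median of several genes varies less than a single gene, so this comparison cannot show whether a group stands apart. With end protection added to the first group and end resection to the second, 3 of 10 and 4 of 17 passed in C17.2, and 0 of 10 and 1 of 17 in C3.2. The mean log2 level of the 7 end joining genes exceeded that of the 11 recombination genes by 0.374 and 0.322 in C17.2 parental, 0.389 and 0.429 in C17.2 resistant, 0.373 and 0.411 in C3.2 parental and 0.398 and 0.350 in C3.2 resistant libraries. Resistant libraries were the higher ones without overlap in C17.2, and the groups overlapped in C3.2. The end joining median of 0.12 in C17.2 was 0.02 without C17.2 resistant replicate 2, 0.08 without parental replicate 1, 0.09 without parental replicate 2 and 0.20 without resistant replicate 1. The recombination median in C17.2 was 0.03 without C17.2 parental replicate 2, and that in C3.2 was 0.02 without C3.2 parental replicate 1, -0.06 without C3.2 resistant replicate 1 and -0.01 without C3.2 resistant replicate 2.

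**Figure D3:**
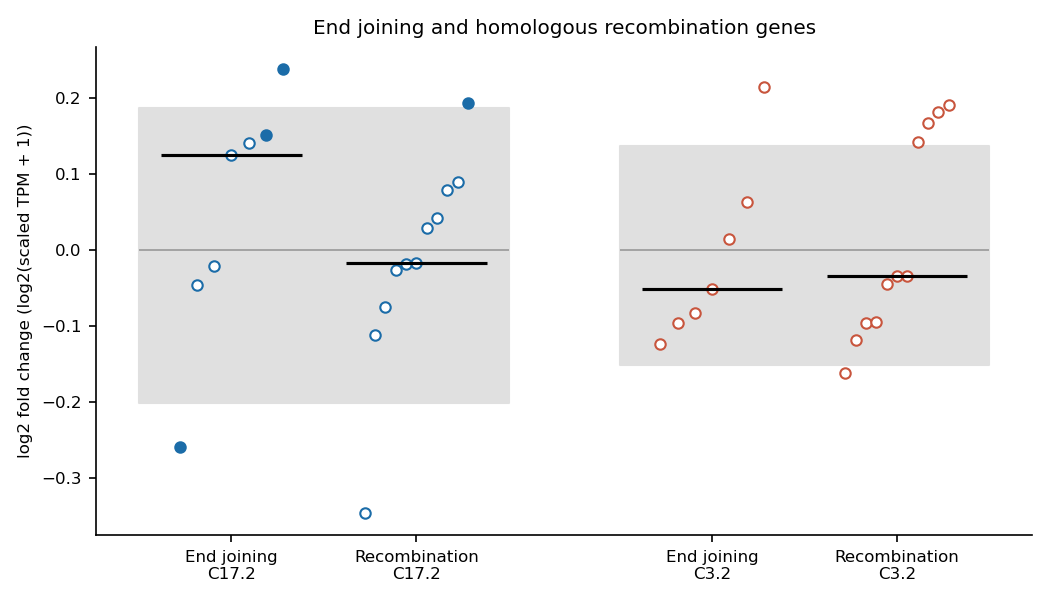
Log2 fold change of the 7 end joining and 11 homologous recombination genes in each clone, 1 circle per gene, filled where it passed the threshold, on the scale of log2(scaled TPM + 1). Black bars are group medians and the gray band is the interquartile range of all 15614 genes tested. The band describes single genes, which vary more than group medians, so medians inside it do not show that a group is typical.

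The change in C17.2 differed from that in C3.2 for 3 of the 36 genes, *XRCC6*, *BLM* and *PARP1*, all with the higher value in C17.2. Of all genes tested, 9.90% passed this test, 4.91% with the higher and 4.99% with the lower value in C17.2, and 8.33% of the repair genes did. The difference in log2 fold change was 0.29 (SE 0.05, adjusted p = 0.0195) for *XRCC6*, 0.42 (SE 0.085, adjusted p = 0.0302) for *BLM* and 0.37 (SE 0.061, adjusted p = 0.0165) for *PARP1*. In the same limma test, 13 of the 36 had an unadjusted p under 0.05. The share of all genes at that threshold was not counted, so this count is not a result about the repair genes. The count of 3 was 0 without C17.2 parental replicate 1 or either C3.2 parental library, 1 without C17.2 parental replicate 2 or resistant replicate 2, 2 without C17.2 resistant replicate 1, 4 without C3.2 resistant replicate 1 and 3 without C3.2 resistant replicate 2. Over the alternatives the adjusted p ran from 0.0166 to 0.0643 for *XRCC6*, 0.0268 to 0.107 for *BLM* and 0.0146 to 0.0661 for *PARP1*, and the difference stayed above 0 in all of them.

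**Figure D4:**
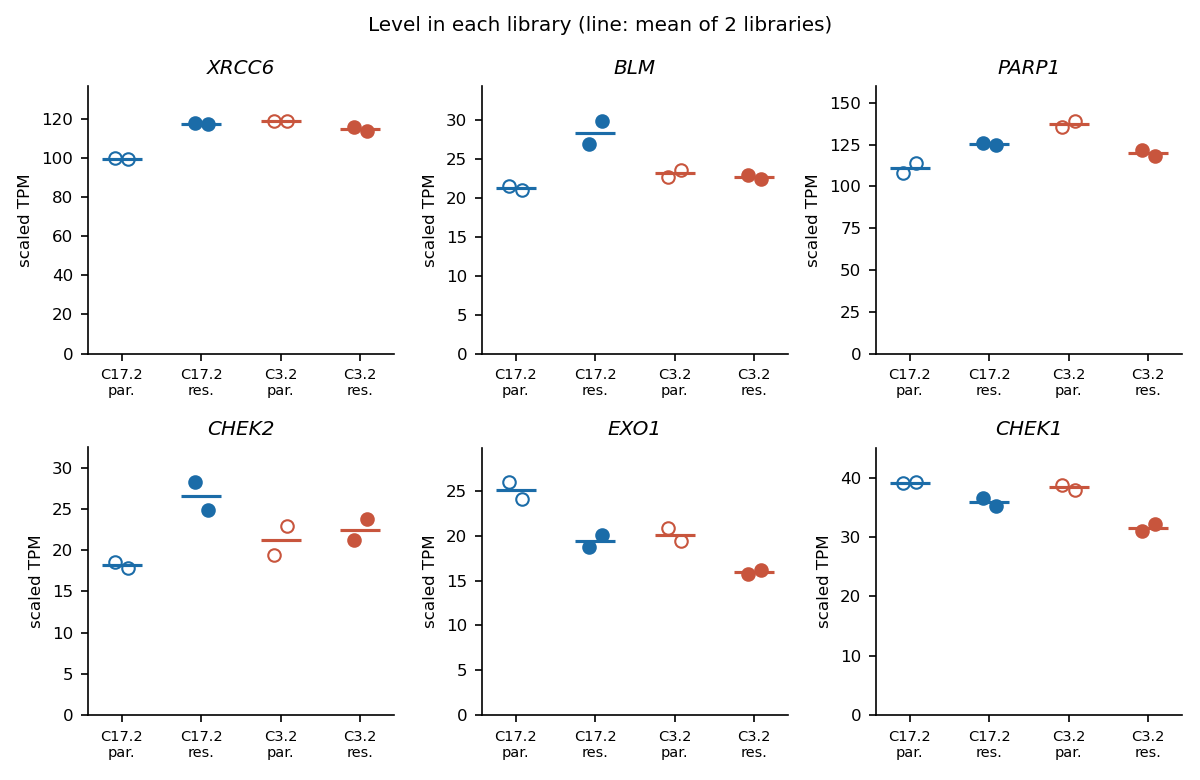
Level of 6 repair genes in each of the 8 libraries, in scaled TPM from 0, with parental libraries as open and resistant libraries as filled circles and a line at the mean of the 2 libraries of a group. *BLM* and *CHEK2* are highest in C17.2 resistant libraries, *XRCC6* is lowest in C17.2 parental libraries, *PARP1* moves in opposite directions in the clones, and *EXO1* is lower in resistant libraries of both.

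Other genes of the same routes were counted in the same way. Of 69 listed, 68 were tested, and 13 passed in C17.2 (7 higher, 6 lower, 19.1%) and 5 in C3.2 (1 higher, 4 lower, 7.35%), beside 27.3% and 11.4% of all genes. Of 9 further end joining genes, 2 passed in C17.2, both lower, among them the gap-filling polymerase *POLL* (-0.44, adjusted p = 0.0321). Of 9 further end protection genes, *DYNLL1*, a dynein light chain that binds 53BP1, rose in C17.2 by 0.66 on the log2 scale (adjusted p = 0.00298), from 95.6 and 105 to 158 and 159 scaled TPM.

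Among 26 further recombination and resection genes, 4 passed in C17.2 and 2 in C3.2, beside 27.3% and 11.4% of all genes. *RAD54B*, a relative of RAD54L, rose in C17.2 (0.48, adjusted p = 0.00419). *RMI2*, a partner of the BLM helicase complex, fell in both clones (-0.48, adjusted p = 0.00307 and -0.30, adjusted p = 0.0351). *RPA1*, the large subunit of the protein that coats single-stranded DNA, rose in C17.2 from 32.6 and 33.3 to 41.1 and 39.9 scaled TPM and fell in C3.2 from 47.6 and 47.7 to 41.9 and 42.0, with log2 fold changes of 0.29 (adjusted p = 0.00312) and -0.18 (adjusted p = 0.0351). Like *PARP1*, its resistant levels in the 2 clones lay between the parental levels, and the difference of the changes passed (0.47, adjusted p = 0.00556).

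Of the 5 genes of the BRCA1-A complex, which restrains resection, 2 fell in C17.2, *ABRAXAS1* (-0.42, adjusted p = 0.00965) and *UIMC1* (-0.32, adjusted p = 0.0301), and none passed in C3.2 in limma (0 at an unadjusted p under 0.05). Over all genes, 13.9% passed as lower in C17.2 and 11.4% passed in C3.2. Among 6 further alternative end joining genes, the flap nuclease *FEN1* rose in C17.2 (0.49, adjusted p = 0.000577), from 35.5 and 36.7 to 51.1 and 51.1 scaled TPM, and the scaffold *XRCC1* fell there (-0.34, adjusted p = 0.0151). *HMCES*, which shields abasic sites, fell in C3.2 (-0.44, adjusted p = 0.0121). Of 13 further signaling genes, *CLSPN* (0.24, adjusted p = 0.0175) and *RAD9A* (0.19, adjusted p = 0.0251), which help activate CHK1, rose in C17.2, while in C3.2 *HUS1*, of the same clamp as RAD9A, rose (0.32, adjusted p = 0.0435) and the phosphatase *PPM1D* fell (-0.35, adjusted p = 0.0409). The changes of 3 of the 68 genes differed between the clones (4.41%, beside 9.90% of all genes), among them *RPA1* and *FEN1* (0.51, adjusted p = 0.00532). *BLMH*, the hydrolase that inactivates bleomycin, lay between 26.5 and 29.6 scaled TPM in all 8 libraries, with log2 fold changes of 0.02 (SE 0.071, adjusted p = 0.868) and -0.003 (SE 0.071, adjusted p = 0.995).

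*RAG2*, which with RAG1 forms the enzyme that makes V(D)J breaks, fell in both clones. It was at 3.66 and 3.87 scaled TPM in C17.2 parental and 1.37 and 1.51 in resistant libraries, and at 6.50 and 6.26, then 1.06 and 0.68 in C3.2. The log2 fold changes were -0.97 (adjusted p = 0.00183) and -1.99 (adjusted p = 0.000492). *RAG1*, its partner, and *DNTT*, the polymerase that adds bases at V(D)J ends, did not reach 1 TPM in any library. The fall stands beside that of the summed B-lineage markers, which was lower in resistant libraries of both clones without overlap, and their part in the result was not tested.

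Genes of the cell cycle were set beside the repair genes. Of 20 S phase genes, 10 passed in C17.2 (4 higher, 6 lower) and 8 in C3.2 (all lower). Of all genes tested, 27.3% passed in C17.2 (13.4% higher, 13.9% lower) and 11.4% in C3.2 (4.46% higher, 6.90% lower). *CDT1*, which licenses replication origins, fell by 1.22 and 0.41 on the log2 scale (adjusted p = 0.000141 and 0.0181), and *UHRF1*, which maintains DNA methylation, by 0.46 and 0.83 (adjusted p = 0.000416 and 0.00018). *GINS1* (0.34, adjusted p = 0.00976) and *CDC6* (0.26, adjusted p = 0.0279) rose in C17.2. Of 12 mitosis genes, 10 rose in C17.2 and none passed in C3.2 (limma, with 3 of 12 at an unadjusted p under 0.05), and the changes of 7 differed between the clones. The test of the difference was passed by 9.90% of all genes. *CENPF* (0.52, adjusted p = 0.00118) and *CCNB1* (0.50, adjusted p = 0.00153) had the largest rises. In bulk RNA, a changed share of cells in a phase and a changed level per cell cannot be told apart, and the part of the cell cycle in the changes of *BLM*, *XRCC6*, *EXO1* and *CHEK1* was not tested.

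Of 17 target genes of the damage response, 14 were tested, and 8 passed in C17.2 (5 higher, 3 lower) and 5 in C3.2 (2 higher, 3 lower). These are 57.1% and 35.7% of the tested genes of the list. Of all genes tested, 27.3% passed in C17.2 (13.4% higher, 13.9% lower) and 11.4% in C3.2 (4.46% higher, 6.90% lower). *SESN1*, a stress sensor, rose in both clones (0.82, adjusted p = 0.00208 and 0.47, adjusted p = 0.0323), and the cell death gene *BBC3* (-1.42, adjusted p = 0.00027 and -0.65, adjusted p = 0.0123) and *GADD45A* (-0.70, adjusted p = 0.0132 and -0.61, adjusted p = 0.0436) fell in both. *MDM2*, a ubiquitin ligase, rose in C17.2 (0.54, adjusted p = 0.00229), and the death receptor *TNFRSF10B* rose in C3.2 (0.96, adjusted p = 0.00253). The members of this list thus moved in both directions in both clones, and their medians were 0.01 and 0.07.

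**Figure D5:**
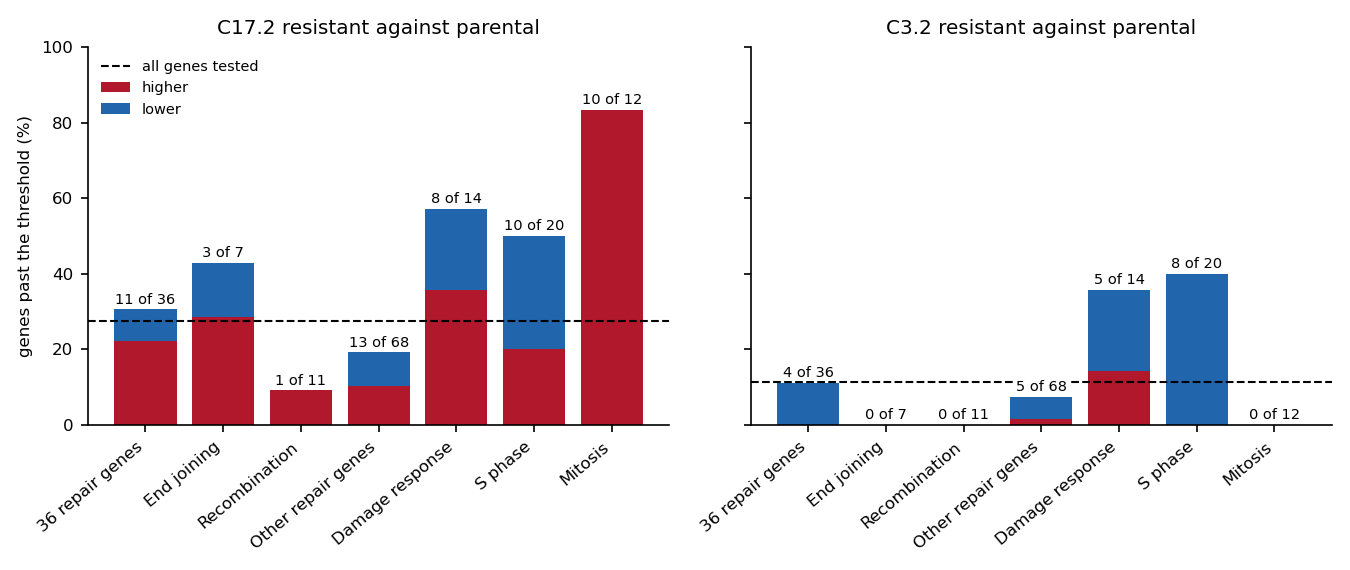
Share of the tested genes of each list that passed the threshold in each clone, in percent, with those higher in resistant cells in red and those lower in blue, the count above each bar and a dashed line at the share of all genes tested (27.3% in C17.2 and 11.4% in C3.2). The 36 repair genes lie near the dashed line in both clones, with 11 of 36 and 4 of 36.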

How the data were processed

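Total RNA libraries (rRNA-depleted) of 8 samples were used. Per the study's methods and the submitters' processing notes, Trim Galore 0.6.3 trimmed the reads, STAR 2.7.9a mapped them on GRCh38, and RSEM 1.3.1 estimated gene levels of Gencode release 31. The values the authors deposited are TPM, unscaled across libraries. Depth is not kept, and reads of near-identical genes were divided by the RSEM model. The labels give single-end reads, the methods paired-end reads.

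The filter kept the 15614 genes, of 60754 genes and spike-ins, that reached a TPM of 1 in any library. Each library's factor was a trimmed mean of log2 ratios against the average library (trim 30% by ratio and 5% by level at both ends). Log2(scaled TPM + 1) went into 1 limma 3.58.1 model (R 4.3.3) of the 4 groups, with eBayes and an intensity trend, two-sided, Benjamini-Hochberg adjustment over all genes, threshold 0.05 and no covariate. Fold changes on this scale understate those of low genes. The study's limma fit used counts, which were not analysed here. Contrasts were resistant against parental in each clone, and their difference. An exact permutation test of 2 against 2 libraries cannot go below 0.333. Nothing states that the 2 libraries of a group came from separate cultures, so p-values measure only the spread between these libraries, which may be technical.

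Members, roles, lists and motifs were chosen with earlier results of these data known. Library values are given for genes past the threshold in a contrast (at most 15 a clone) and the 7 end joining genes. From other lists, the 2 largest rises and 2 largest falls per clone among genes past the threshold are named, with *BLMH* and *CTCF* whatever their result, and some genes of these lists are not reported here. *H2AX* was matched by its older symbol. Gene overlaps came from Gencode release 44, start regions from RefSeq (GRCh38.p14). The fit was tested on simulated data. Alternatives were 3 other scalings, a pseudocount of 0.1, other filters, no trend, 1 clone alone and leaving out each library. Python 3.11.15, pandas 2.3.3 and matplotlib 3.10.9 made tables and plots.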

Additional observations from a re-analysis of the deposited data

Results flagged for a closer look

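The changes of some named genes differed between the clones, by the limma test of the difference (the log2 fold change in C17.2 minus that in C3.2). Among the repair genes these were *XRCC6* (0.29, adjusted p = 0.0195), *BLM* (0.42, adjusted p = 0.0302) and *PARP1* (0.37, adjusted p = 0.0165). Among the other repair genes named they were *RPA1* (0.47, adjusted p = 0.00556) and *FEN1* (0.51, adjusted p = 0.00532).

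*RAG2* fell in both clones and by less in C17.2, so its difference was above 0 (1.02, adjusted p = 0.0146). Of the target genes of the damage response, *MDM2* had a difference of 0.62 (adjusted p = 0.0145), *BBC3*, which fell in both clones and farther in C17.2, of -0.76 (adjusted p = 0.0231), and *TNFRSF10B* of -1.22 (adjusted p = 0.00361). Of the S phase genes, *CDC6* had a difference of 0.55 (adjusted p = 0.0179), *CDT1* of -0.81 (adjusted p = 0.00677) and *UHRF1* of 0.38 (adjusted p = 0.00874). The mitosis genes *CENPF* (0.68, adjusted p = 0.00479) and *CCNB1* (0.56, adjusted p = 0.0101) had the larger value in C17.2. The sample titles carry a separate run of number prefixes for each clone, and clone and any difference that goes with these numbers cannot be told apart. Groups of 2 libraries were too small to test for single libraries that stand apart.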

How the results depend on the processing

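With the trend left out of limma, 7 repair genes passed in C17.2 (11 before), 2 in C3.2 (4 before) and 1 in the difference (3 before). In C3.2, the count was 0 with TPM as deposited, 2 with quantile normalization, 2 with no filter and 0 with only the libraries of C3.2. Leaving out 1 library gave 3 to 13 in C17.2, 0 to 2 in C3.2 and 0 to 4 in the difference. The end joining median of 0.12 in C17.2 was 0.26 with TPM as deposited, 0.16 with quantile normalization and 0.20 rescaled over protein-coding genes, and 0.022 to 0.195 without 1 library. The -0.05 in C3.2 was 0.014, 0.038 and 0.052 under the same 3 scalings. The recombination median of -0.02 in C17.2 was 0.14 with TPM as deposited and 0.064 rescaled over protein-coding genes, and -0.017 to 0.028 without 1 library. The -0.03 in C3.2 was 0.029, 0.0060 and 0.064 under the 3 scalings, and -0.058 to 0.017 without 1 library. The sign of 3 of the 4 medians thus depended on scaling, and the cause was not tested. Values that had not passed the threshold and changed sign, with no call before or after, were these. With TPM as deposited they became 0.11 for *PRKDC*, 0.13 for *DCLRE1C*, 0.034 for *CHEK1*, 0.13 for *POLQ* in C17.2, and 0.014 for *XRCC6*, 0.0027 for *RNF168*, 0.035 for *BLM*, 0.061 for *BLMH* in C3.2. With quantile normalization they became 0.015 for *PRKDC* in C17.2, and 0.047 for *XRCC6*, 0.0027 for *BLM*, 0.026 for *BLMH* in C3.2. With TPM rescaled over protein-coding genes they became 0.038 for *PRKDC*, 0.060 for *DCLRE1C*, 0.059 for *POLQ* in C17.2, and 0.0078 for *XRCC5*, 0.052 for *XRCC6*, 0.012 for *NHEJ1*, 0.025 for *RNF8*, 0.038 for *RNF168*, 0.071 for *BLM*, 0.097 for *BLMH* in C3.2. Without 1 library, *PRKDC* in C3.2 reached -0.0048 (without C3.2 resistant replicate 2), *DCLRE1C* in C3.2 ran from -0.049 (C3.2 resistant replicate 1) to 0.077, *CHEK2* in C3.2 reached -0.030 (C3.2 parental replicate 1), *RNF8* in C3.2 ran from -0.20 to 0.070 (C3.2 resistant replicate 2), *POLQ* in C17.2 from -0.051 to 0.0064 (C17.2 resistant replicate 2), *BLMH* in C17.2 from -0.041 (C17.2 resistant replicate 1) to 0.082, with -0.024 without C17.2 parental replicate 1, and *BLMH* in C3.2 from -0.079 to 0.074 (C3.2 parental replicate 1), with 0.0011 without C3.2 resistant replicate 1. In the difference between the clones, 64.0% of calls were higher with TPM as deposited, beside 49.6% before. Of 15 calls on repair genes, 15 held with pseudocount 0.1 and 15 with TPM of at least 1 in 2 libraries, 12 with quantile normalization, 10 with no filter, 10 rescaled over protein-coding genes, 9 with no trend and 8 with TPM as deposited. With no filter 30771 genes were tested, of which 3792 passed in C17.2, 1173 in C3.2 and 1098 in the difference, beside 4261, 1773 and 1546. With only the libraries of C3.2, 74 genes passed. Without 1 library, 2374 to 4551 passed in C17.2, 325 to 1785 in C3.2 and 541 to 1747 in the difference. No paired analysis was possible because the labels give no replicate numbers shared between groups. Depth is unknown, so counting error could not be given.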
